A study of Mus musculus with 12 samples.

Results

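The genes described are 10 genes of the Nrf2 pathway and of glutathione synthesis, namely Nfe2l2 and its inhibitor Keap1, the target genes Nqo1, Hmox1, Srxn1 and Txnrd1, and the glutathione genes Gclc, Gclm, Gsr and Slc7a11. They are the probe sets (groups of short probes with 1 summary signal per array) that the array's annotation assigns to these symbols, 21 probe sets for 10 of the 18193 genes with a probe set of their own. Each gene was read from its probe set with the highest mean signal over all arrays. Expression was measured in whole liver of 12 C57BL/6 mice, taken in the fasting state, with 1 Affymetrix array per mouse and 4 mice per group. All mice were 8 weeks old at the start and were fed for 8 weeks. The NC mice received normal chow. The MCD+HF mice received a high-fat diet without methionine and choline, a dietary model of steatohepatitis in mice that carry no engineered allele, and the MCD+HF+Met mice received the same diet mixed with metformin at 0.1%. Chow and model diet differ in fat, methionine and choline at once, so the comparison of MCD+HF with NC cannot tell these components apart.

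Nrf2, the product of Nfe2l2, is a transcription factor that Keap1 holds in the cytoplasm and hands to a ubiquitin ligase for destruction. Oxidants and electrophiles modify cysteines of Keap1, after which Nrf2 accumulates, pairs with a small Maf protein in the nucleus and binds antioxidant response elements near genes for detoxification and antioxidant defence. In the liver these genes supply glutathione, the main thiol of the hepatocyte, which is built from glutamate, cysteine and glycine, and the cysteine comes partly from dietary methionine through transsulfuration. The mRNA levels measured here do not read the amount or the location of the Nrf2 protein.

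Of the 10 genes, 9 had a mean signal of at least 20 and were tested. Slc7a11 lay below that level. With the MCD+HF diet, 6 of the 9 rose against NC, Keap1 fell, and Gclc and Gclm were not called. A gene is called here when its adjusted p from limma, over all 22830 probe sets tested, is under 0.05. The background for this count is wide, since 48.2% of 11099 genes were called in the same comparison (27.4% higher and 20.8% lower). The median difference of the 9 genes was 0.42 and that of all genes 0.05, as differences of mean log2(signal + 10). With metformin added to the diet, Hmox1 fell and none of the 9 rose against MCD+HF, where 3.97% of all genes were called (1.63% higher and 2.34% lower). The median difference of the 9 genes was -0.09 there and that of all genes 0.01. Between MCD+HF+Met and NC, 6 rose, Gclm fell and 2 were not called, beside 44.2% of all genes (25.6% higher and 18.6% lower), with a median of 0.43 for the 9 genes and 0.06 for all. The 3 comparisons share arrays and are not independent of each other. The values of the 2 groups did not overlap for 8 of the 9 genes with the diet (45.1% of all genes), for 2 with metformin (12.6%) and for 5 between MCD+HF+Met and NC (39.7%).

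**Figure D1:**
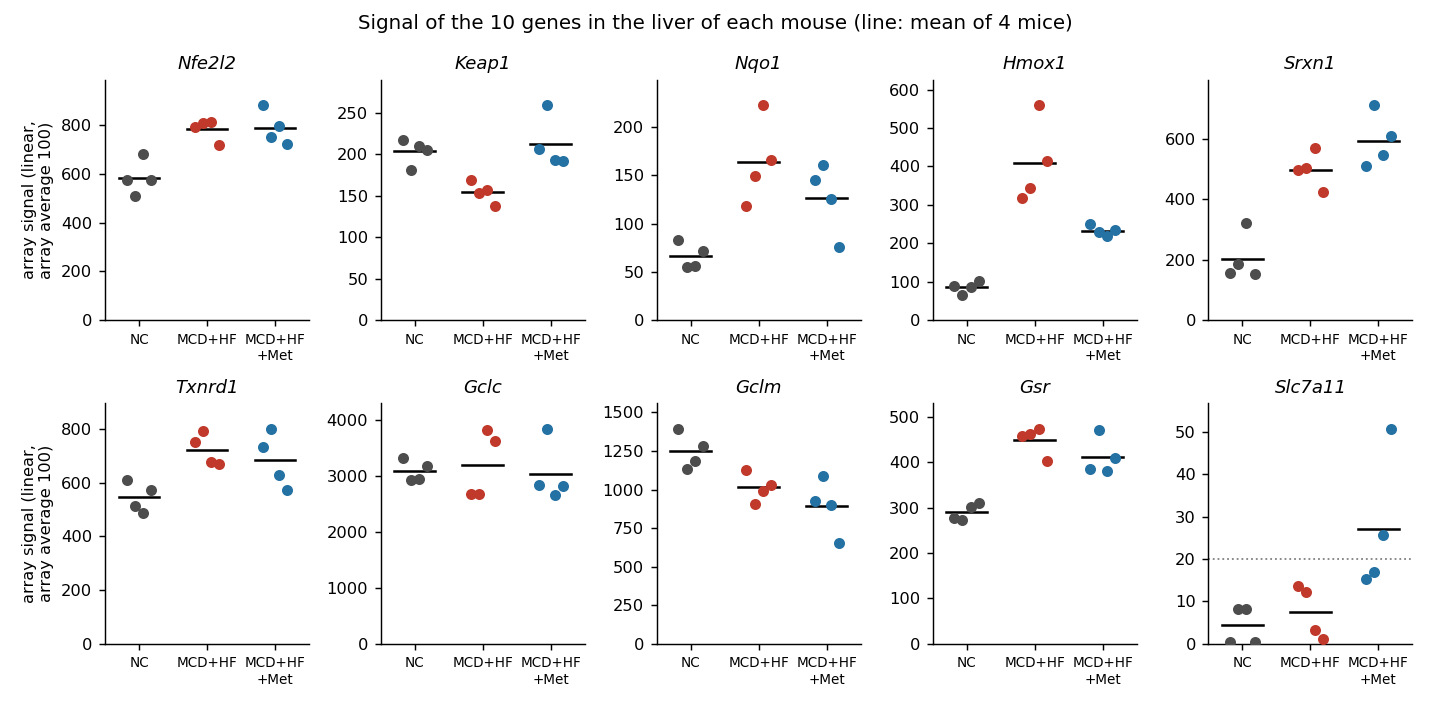
Signal of each of the 10 genes in each mouse (points) on a linear axis from 0, with the mean of the 4 mice of a group as a line; the dotted line in the Slc7a11 panel is the level of 20 below which a gene was not tested. Hmox1 lies between 65.5 and 101.7 in the NC mice, between 316.9 and 558.8 in the MCD+HF mice and between 218.4 and 249.9 in the MCD+HF+Met mice, while Gclc overlaps in all groups.

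As a check of the tissue, 10 hepatocyte markers were read, and all were well above the level for testing. Their summed signal was 118343 to 139952 in NC, 58472 to 75461 in MCD+HF and 65904 to 88016 with metformin, and 8 of the 10 fell with the diet, Alb by 1.02 on the log2 scale. Markers of other cell types moved with the diet as well. Of 10 stellate cell and myofibroblast markers, 9 were higher (summed signal 1189.6 to 1508 in NC and 3795 to 5564 in MCD+HF). Among these 10, Col1a1 and Timp1 had NC means under 20 (17.1 and 12.2). The 5 cholangiocyte markers summed to 23.8 to 81.1 and 343 to 490.3. All 5 had NC means under 20 (Krt19 8.6, Krt7 13.9, Epcam 6.3, Sox9 12.25, Cldn7 6.55). They passed the filter only through the groups on the model diet, so no count of rises is given for them. The part of these cells in the diet's differences was not tested. Over all genes, 27.4% rose with the diet and 20.8% fell. In whole liver, fewer cells of a type and less RNA per cell cannot be told apart. The highest signal on an array was 19413 to 23472.5 in NC, 9467 to 11830 in MCD+HF and 11539 to 13694.5 with metformin. The part of the scaling of the arrays in the hepatocyte marker falls was not tested. The array controls of RNA quality gave a ratio of 3' to 5' signal of 1.73 ± 0.140 (SD, n = 4), 1.54 ± 0.0694 and 1.73 ± 0.114 for beta-actin in NC, MCD+HF and MCD+HF+Met, and of 0.710 ± 0.0122, 0.699 ± 0.0123 and 0.757 ± 0.0451 for Gapdh. For beta-actin every MCD+HF array (1.458 to 1.617) lay below every MCD+HF+Met array (1.620 to 1.860), and the part of this in the differences with metformin was not tested. Arrays of the same group correlated at 0.971 or more over the probe sets tested.

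Nfe2l2 itself, the gene of Nrf2, had signals of 575.3, 508.2, 681.2 and 576.4 in the NC mice. The MCD+HF mice had 793.9, 809.0, 813.9 and 718.5, and the MCD+HF+Met mice had 881.1, 753.2, 795.7 and 721.2. Every mouse on either model diet lay above every NC mouse, and the mice with and without metformin overlapped. The rise was 1.34-fold in mean signal with the diet, or 0.42 ± 0.10 (SE) on the log2 scale (limma adjusted p = 0.00315), and 0.43 ± 0.10 between MCD+HF+Met and NC (adjusted p = 0.00332). With metformin the difference was 0.00, with a 95% confidence interval from -0.21 to 0.22. A second, dimmer probe set of Nfe2l2 with a mean signal of 30.1 gave another picture. It read 18.3, 21.4, 27.7 and 31.7 in NC, 16.7, 23.7, 10.8 and 24.0 in MCD+HF, and 61.5, 44.6, 46.6 and 34.4 in MCD+HF+Met. On this probe set the metformin mice were above all others, the difference from MCD+HF was 0.99 ± 0.20 (adjusted p = 0.0160), and the difference of MCD+HF from NC was -0.28 (adjusted p = 0.278). Which transcripts each probe set reads was not tested.

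Keap1, the inhibitor, had signals of 217.3, 181.3, 209.4 and 204.6 in NC. In MCD+HF they were 169.3, 153.4, 156.9 and 137.3, and in MCD+HF+Met 206.7, 258.6, 193.2 and 192.1. The MCD+HF mice were below all mice of both other groups, and the metformin mice overlapped with NC. Keap1 fell by 0.38 on the log2 scale with the diet (SE 0.12, adjusted p = 0.0149), so on the brightest probe sets Nfe2l2 was higher and Keap1 lower in the same livers. The difference with metformin was 0.43 ± 0.12, with an interval from 0.19 to 0.68, and its adjusted p of 0.0515 lay just beyond the threshold. It was called with a larger offset, a stricter filter, quantile normalization, a robust variance or without MCD+HF+Met replicate 4, with adjusted p of 0.0480, 0.0390, 0.0349, 0.0494 and 0.0489. The other Keap1 probe set, with a mean signal of 67.5, did not show it. There the differences were -0.33 with the diet (adjusted p = 0.107), -0.08 with metformin (adjusted p = 0.833) and -0.41 between MCD+HF+Met and NC (adjusted p = 0.0508).

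Hmox1 showed the greatest difference of the 9 genes with the diet, and it was the single gene of the 9 that was called with metformin. It encodes heme oxygenase-1, which opens heme to biliverdin, carbon monoxide and iron. The NC mice had signals of 88.8, 65.5, 86.9 and 101.7, the MCD+HF mice 316.9, 345.1, 558.8 and 415.0, and the MCD+HF+Met mice 249.9, 228.9, 218.4 and 235.4. The groups formed separate ranges, with metformin between chow and the untreated diet, and the spread was widest in MCD+HF, whose replicate 3 stood highest. Hmox1 rose 4.77-fold in mean signal with the diet, from 85.7 ± 15 (SD, n = 4) to 409 ± 108, or by 2.11 ± 0.16 (SE) on the log2 scale (adjusted p = 5.1e-08). It was 1.75-fold lower with metformin, at 233 ± 13.2, a log2 difference of -0.75 ± 0.16 with an interval from -1.09 to -0.42 (adjusted p = 0.0179). It was still 2.72-fold above NC (log2 difference 1.36, adjusted p = 6.4e-06). The array holds 1 probe set that names Hmox1 alone. Without MCD+HF+Met replicate 2 the difference with metformin was -0.74 and no longer called (adjusted p = 0.0567), and over all alternatives its adjusted p lay between 0.0124 and 0.137.

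Heme oxygenase-1 is made by macrophages as well as by stressed hepatocytes, and most but not all macrophage markers moved in the same directions as Hmox1. Of 22 markers, all with a probe set and none at 0, 21 were bright enough to test (Itgam was dim). With the diet 14 rose and 3 fell, beside 27.4% higher and 20.8% lower over all genes. Those that fell were Cd163 and the Kupffer cell markers Clec4f and Timd4. Mean signals went from 227 to 81.9, from 509 to 208 and from 57.6 to 18.6. Gpnmb and Trem2 had NC means of 9.6 and 3.1, under the level of 20, and passed the filter only through the groups on the model diet. With metformin 9 fell and none rose, beside 2.34% lower and 1.63% higher over all genes. The summed signal of the markers was 6660 to 8519 in NC, 7326 to 12110 in MCD+HF+Met, and it reached 15450 to 21746 in MCD+HF. Relative to NC, the mean log2 level of the list was 1.22 ± 0.098 (SD, n = 4) in MCD+HF, and with metformin it was 0.50 ± 0.30. By mouse, the Hmox1 levels relative to the NC mean were 1.79, 1.91, 2.59 and 2.16 in MCD+HF replicates 1 to 4, while the marker means were 1.35, 1.19, 1.22 and 1.11. In MCD+HF+Met replicates 1 to 4 the Hmox1 levels were 1.46, 1.33, 1.27 and 1.37, and the marker means 0.35, 0.15, 0.72 and 0.77. Within each group, the mouse with the highest Hmox1 was not the mouse with the highest marker mean. The part of macrophages in the Hmox1 values was not tested.

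**Figure D2:**
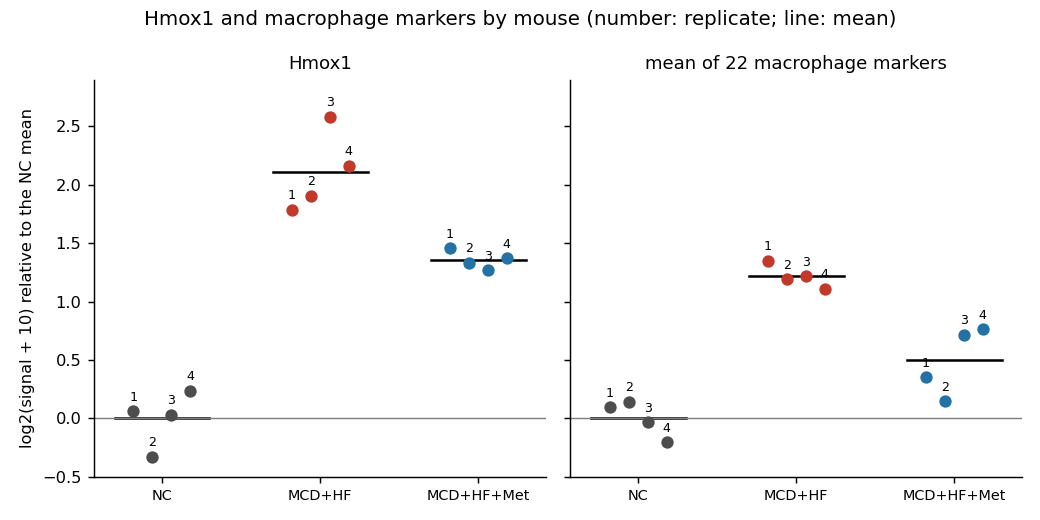
Level of Hmox1 (left) and mean level of the 22 macrophage markers (right) in each mouse, as log2(signal + 10) relative to the mean of the NC mice; points are mice numbered by replicate and lines are group means. Both are highest in MCD+HF and lie between NC and MCD+HF in MCD+HF+Met, at 1.36 for Hmox1 and 0.50 for the markers.

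Nqo1 encodes a quinone reductase that is widely used as a readout of Nrf2 activity. Its signals were 83.4, 55.0, 56.5 and 71.4 in NC, 117.8, 149.8, 222.6 and 165.9 in MCD+HF, and 145.2, 161.2, 125.8 and 75.3 in MCD+HF+Met. All MCD+HF mice were above all NC mice, and in the metformin group replicate 4 fell within the NC range. Nqo1 rose 2.46-fold with the diet, from 66.6 ± 13.4 (SD, n = 4) to 164 ± 43.9, or by 1.17 ± 0.21 (SE) on the log2 scale (adjusted p = 3.9e-04). The difference with metformin was -0.36, with an interval from -0.82 to 0.10 (adjusted p = 0.382), and MCD+HF+Met remained above NC by 0.81 (adjusted p = 0.00729). Nqo1, like Hmox1, is read by a single probe set.

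Srxn1 encodes sulfiredoxin, which restores overoxidised peroxiredoxins. It had 154.4, 184.4, 323.3 and 154.0 in NC, 496.9, 503.7, 569.2 and 424.2 in MCD+HF, and 510.3, 711.9, 547.3 and 610.9 in MCD+HF+Met. Both diet groups were above all NC mice, of which replicate 3 was highest, and they overlapped with each other. Srxn1 rose 2.44-fold with the diet (log2 difference 1.31 ± 0.19, adjusted p = 4.2e-05) and 2.92-fold in MCD+HF+Met against NC (1.55 ± 0.19, adjusted p = 9.3e-06). Metformin left it at 0.25 above MCD+HF, with an interval from -0.15 to 0.65 (adjusted p = 0.511), so the estimate for Srxn1 pointed the other way from that for Hmox1; the difference between these genes was not tested. Of 3 other Srxn1 probe sets, 2 rose likewise with the diet (1.62 and 1.21), and the dimmest, with a mean signal of 53.6, gave 0.10 (adjusted p = 0.751). With metformin these gave 0.17 (adjusted p = 0.534), 0.44 (adjusted p = 0.169) and -0.086 (adjusted p = 0.878). On the probe set at 0.44 the metformin mice, with 347.2, 377.1, 325.3 and 389.8, lay wholly above the MCD+HF mice, with 249.0, 285.1, 265.6 and 252.5.

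The stretch before the start of Srxn1 is shown because the gene rose on 3 of its 4 probe sets and because its letters hold matches to the core of the antioxidant response element. The strict core searched was TGACNNNGC and the loose core TGANNNNGC, on both strands of the 250 bases before each RefSeq start. The loose core holds every strict match and overlaps the AP-1 letters TGAGTCA where it reads TGAGTCAGC. The strict core occurs in 10.2% and the loose core in 35.2% of 32851 such stretches. Srxn1 has 3 loose matches and no strict match, and they begin 158, 57 and 45 bases before the start at chr2:152105274-152105523 (plus strand, GRCm38.p6). The matches are in capitals.
Srxn1: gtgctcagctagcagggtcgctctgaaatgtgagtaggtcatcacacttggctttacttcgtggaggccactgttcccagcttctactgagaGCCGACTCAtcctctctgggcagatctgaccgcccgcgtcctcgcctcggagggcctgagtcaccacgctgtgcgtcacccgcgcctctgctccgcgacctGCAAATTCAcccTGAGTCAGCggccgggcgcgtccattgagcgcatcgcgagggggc
Of the 10 genes, 7 had such a stretch in the sequences used. No sequence was available for Gclc, Hmox1 and Gsr, so these were not searched. Strict matches were found before Nfe2l2, Gclm and a start of Txnrd1, loose ones also before Keap1, Slc7a11 and another start of Txnrd1, and none in the 250 bases before Nqo1. Bases farther from the starts were not searched. A match describes letters only and is not a measured binding site.

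Txnrd1 encodes the cytosolic thioredoxin reductase, which uses NADPH to keep thioredoxin reduced. Its brightest probe set gave 609.4, 513.1, 486.5 and 572.3 in NC, 750.1, 794.0, 676.4 and 670.6 in MCD+HF, and 733.6, 799.6, 627.4 and 573.1 in MCD+HF+Met. MCD+HF lay wholly above NC, and metformin replicate 4 reached into the NC range. The gene rose by 0.40 ± 0.11 with the diet (adjusted p = 0.00976) and by 0.31 in MCD+HF+Met against NC (adjusted p = 0.0392), and the latter call was lost without NC replicate 2 (adjusted p = 0.0958), NC replicate 3 (0.109), MCD+HF+Met replicate 1 (0.101) or MCD+HF+Met replicate 2 (0.134). It was also lost with no filter (0.0576), quantile normalization (0.0570), no trend of the variance (0.0640), only the 2 groups in the fit (0.0601) and the methods' t-test after adjustment (0.119). The difference with metformin was -0.09, with an interval from -0.33 to 0.16. The 2 other probe sets of Txnrd1 ran the opposite way. The one with a mean signal of 87.2 had 105.3, 139.8, 125.8 and 124.9 in NC, 83.1, 70.5, 79.7 and 66.8 in MCD+HF, and 67.2, 60.2, 56.1 and 67.1 in MCD+HF+Met. It fell by 0.65 with the diet (adjusted p = 4.1e-04) and by 0.88 in MCD+HF+Met against NC (adjusted p = 3.3e-05), and the dimmest gave -0.15 (adjusted p = 0.595) and -0.49 (adjusted p = 0.0728). The direction for Txnrd1 therefore depends on the probe set read.

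**Figure D3:**
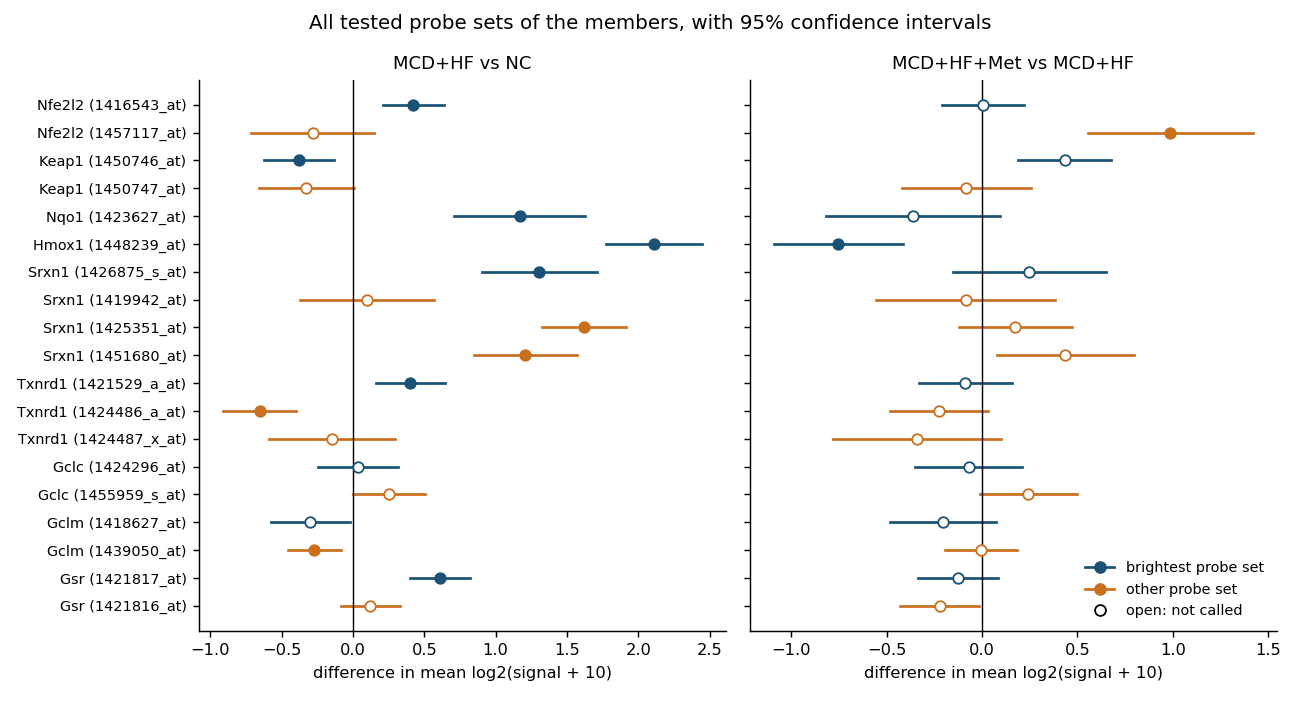
Difference in mean log2(signal + 10) of every tested probe set of the 9 genes for MCD+HF minus NC (left) and MCD+HF+Met minus MCD+HF (right), with 95% confidence intervals; filled points have an adjusted p under 0.05. The probe sets of Txnrd1 lie on both sides of 0 with the diet, at 0.40, -0.65 and -0.15, and the dimmer probe set of Nfe2l2 stands at 0.99 with metformin.

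Of the genes that build glutathione, the subunits of glutamate-cysteine ligase were not called with the diet. Gclc encodes the catalytic subunit of this ligase, the rate-limiting enzyme of glutathione synthesis. It had 3327.8, 2933.8, 2940.9 and 3175.4 in NC, 2688.1, 2680.6, 3819.7 and 3621.3 in MCD+HF, and 2835.6, 3841.4, 2662.4 and 2824.6 in MCD+HF+Met. The MCD+HF mice divided into a lower pair (replicates 1 and 2) and a higher pair (replicates 3 and 4) around the NC range, and all groups overlapped. The differences were 0.03 with the diet (interval -0.25 to 0.31, adjusted p = 0.866), -0.07 with metformin (interval -0.35 to 0.21) and -0.04 between MCD+HF+Met and NC (interval -0.32 to 0.24). Scaling mattered for this gene, because with quantile normalization the diet's difference became 0.40 and was called (adjusted p = 0.0146). The arrays share a trimmed mean of 100, but their untrimmed mean was 191 to 199.7 in NC, 161 to 169.9 in MCD+HF and 165 to 175 with metformin. The other Gclc probe set gave 0.25 with the diet (adjusted p = 0.102), 0.24 with metformin (adjusted p = 0.285) and 0.49 in MCD+HF+Met against NC (adjusted p = 0.00382).

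Gclm encodes the modifier subunit of the same ligase, which lowers its need for glutamate and its inhibition by glutathione. Signals of 1391.4, 1135.2, 1184.6 and 1283.4 in NC stood against 1128.6, 907.7, 987.9 and 1028.6 in MCD+HF and 925.6, 1086.1, 899.0 and 650.2 in MCD+HF+Met. Both diet groups lay below all NC mice and overlapped with each other. The diet's difference was -0.30, with an interval from -0.58 to -0.02 and an adjusted p of 0.0768. It was called with only the 2 groups in the fit (adjusted p = 0.0243), without MCD+HF+Met replicate 4 (adjusted p = 0.0215), by the methods' t-test after adjustment (adjusted p = 0.0463), and on the other Gclm probe set (-0.27, adjusted p = 0.0206). Gclm fell by 0.50 in MCD+HF+Met against NC (SE 0.13, adjusted p = 0.00637), and the difference with metformin was -0.20 (interval -0.48 to 0.07). Gclm is shown beside Srxn1 as a gene that was not called with the diet and whose 250 bases before the start hold a match to the strict core, which begins 134 bases before the start at chr3:122245307-122245556 (plus strand, GRCm38.p6, match in capitals).
Gclm: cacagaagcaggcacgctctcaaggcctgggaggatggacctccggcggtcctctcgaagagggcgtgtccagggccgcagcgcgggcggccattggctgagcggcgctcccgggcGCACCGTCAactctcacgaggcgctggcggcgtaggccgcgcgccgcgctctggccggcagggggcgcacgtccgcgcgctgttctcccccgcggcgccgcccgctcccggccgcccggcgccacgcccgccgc
Sequences are from RefSeq.

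Gsr encodes glutathione reductase, which returns oxidised glutathione to its reduced form. NC mice had 277.8, 273.3, 300.9 and 311.3, MCD+HF mice 458.9, 462.0, 473.5 and 402.9, and MCD+HF+Met mice 384.9, 471.7, 380.9 and 410.6. All mice on the model diet exceeded all NC mice. Gsr rose 1.55-fold with the diet (log2 difference 0.61 ± 0.10, adjusted p = 1.2e-04) and by 0.49 in MCD+HF+Met against NC (adjusted p = 0.00102), and with metformin the difference was -0.12 (interval -0.33 to 0.08). The other Gsr probe set, with 230.8, 240.0, 241.1 and 219.4 in NC and 228.9, 254.7, 284.4 and 250.8 in MCD+HF, gave 0.12 (adjusted p = 0.332) with the diet and -0.10 (adjusted p = 0.433) in MCD+HF+Met against NC.

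Slc7a11 encodes the cystine carrier of system xc-, through which cells take up cystine for glutathione. It was dim, with a mean signal of 13.0. Its signals were 0.5, 8.2, 8.3 and 0.3 in NC, 13.6, 12.2, 3.2 and 1.2 in MCD+HF, and 15.2, 17.0, 25.7 and 50.7 in MCD+HF+Met. The metformin mice were above all others, and replicate 4 was highest. The other probe set, with a mean signal of 12, had 11.2, 10.6, 12 and 7.4 in NC, 8.9, 2.8, 5.2 and 6.3 in MCD+HF, and 14.9, 16.3, 16.4 and 31.4 in MCD+HF+Met, with the same order of the metformin mice against the rest. When no filter on dim probe sets was applied, the differences with metformin were 1.06 (adjusted p = 0.143) and 0.89 (adjusted p = 0.0472) for these probe sets, and those between MCD+HF+Met and NC 1.34 (adjusted p = 0.00647) and 0.52 (adjusted p = 0.0829). At such signals, values are close to the background of the array.

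**Figure D4:**
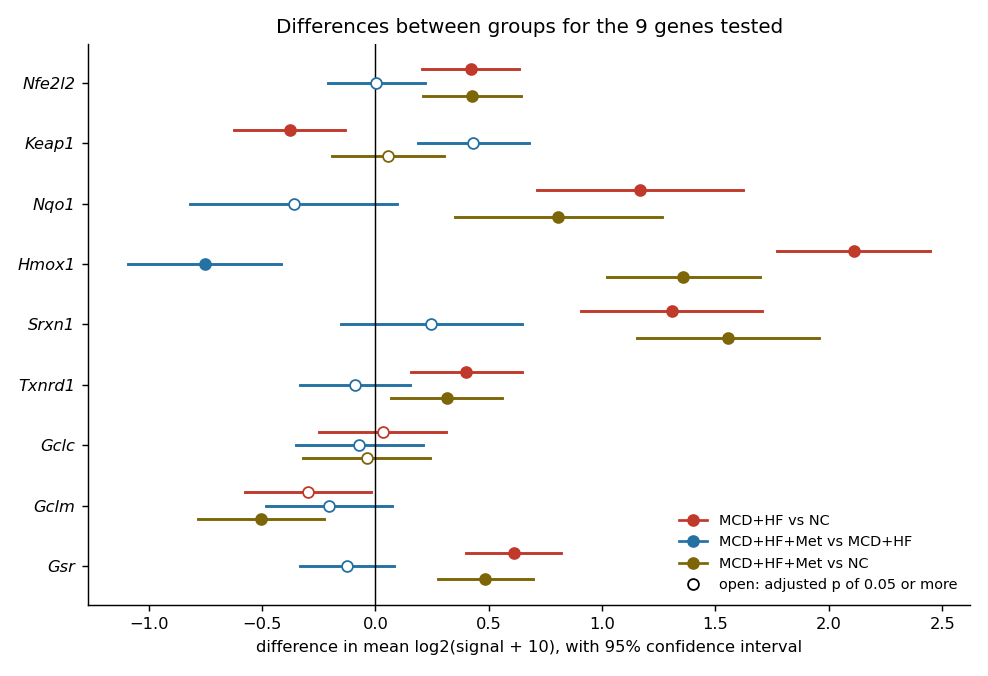
Difference between groups in mean log2(signal + 10) with its 95% confidence interval for the 9 genes tested, for MCD+HF minus NC, MCD+HF+Met minus MCD+HF and MCD+HF+Met minus NC; filled points have an adjusted p under 0.05. With metformin, the single filled point is Hmox1 at -0.75, and the interval of Keap1 runs from 0.19 to 0.68.

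The patterns most like those of the 3 genes with the widest range of group means were named by the root mean square difference of log2 levels over the 12 arrays, each centred on NC. For Hmox1 they were Acot4 (0.259), Myc (0.273) and Rhbdf2 (0.296), for Srxn1 they were Tpm1 (0.216), Nek2 (0.217) and Ifi27l2b (0.248), and for Nqo1 they were Slc44a3 (0.240), Nfe2l1 (0.244) and Cdkn1c (0.246). Nfe2l1 encodes a relative of Nrf2 that governs proteasome genes, and its signals were 131.1, 104.5, 158.3 and 156.8 in NC, 232.8, 312.3, 320.6 and 300.7 in MCD+HF, and 265.4, 278.3, 192.5 and 163.8 in MCD+HF+Met. It was named for its likeness to Nqo1, so its highest level in MCD+HF is not a separate observation.

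Around the pathway, the partners, rivals and regulators of Nrf2 showed 5 of 13 tested genes that rose and 2 that fell with the diet, and none called with metformin (median differences 0.23 and -0.12). The 7 called with the diet make a share near the 48.2% of all genes, and with metformin 3.97% of all genes were called. Mafk and Maff, small Maf proteins that pair with Nrf2, rose by 1.22 and 1.17 (adjusted p = 2.6e-04 and 0.00134), and Nfe2l1 rose by 1.04 (adjusted p = 1.6e-04). Bach1, the repressor that competes for the same elements and restrains Hmox1, gave 0.07 with the diet (adjusted p = 0.709). With metformin its difference was -0.33 (adjusted p = 0.184). Both Bach1 values were chosen after they were seen.

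Of 22 tested genes of glutathione synthesis, use and turnover outside the 10, 10 rose and 6 fell with the diet, with a median of 0.42, beside 48.2% called over all genes. Gpx3, the secreted glutathione peroxidase, had 71.0, 59.2, 89.1 and 45.3 in NC and 593.7, 556.1, 555.0 and 569.7 in MCD+HF, a rise of 8.60-fold (log2 difference 2.96, adjusted p = 1.1e-09). Gss, the glutathione synthetase that adds glycine in the last step, rose by 0.58 (adjusted p = 3.6e-04) and was chosen after its values were seen. Ggct, an enzyme that breaks down gamma-glutamyl peptides, rose by 1.72 (adjusted p = 3.0e-06). Cbs, which starts the transsulfuration of methionine-derived homocysteine to cysteine, moved the other way. It had 1592.7, 1532.6, 1371.3 and 1209.4 in NC, 453.6, 443.8, 415.4 and 446.8 in MCD+HF, and 664.9, 774.3, 736.2 and 859.9 in MCD+HF+Met, 3 ranges that did not overlap. Cbs fell by 1.67 with the diet (adjusted p = 6.7e-09) and rose by 0.77 with metformin (adjusted p = 0.00126). It was the single call among the 22 with metformin (median 0.04), beside 3.97% of all genes. Of 10 hepatocyte markers, 8 fell with the diet over the same arrays, as given above, and the part of hepatocytes in the Cbs values was not tested.

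In the thioredoxin system, 2 of 9 tested genes rose and 3 fell with the diet (median -0.10), a share near the 48.2% of all genes. The mitochondrial members Txn2 and Prdx3 rose by 1.07 and 0.91 (adjusted p = 1.8e-05 and 2.1e-06), and Txnrd3 and Prdx4, the peroxiredoxin of the endoplasmic reticulum, fell by 0.74 and 0.52 (adjusted p = 6.0e-04 and 9.9e-04). Among 7 genes of NADPH supply, 2 rose and 2 fell (median -0.16), again near that share. Pgd, an enzyme of the pentose phosphate pathway, rose 3.53-fold, from 112.3, 103.7, 122.0 and 98.0 in NC to 417.2, 416.1, 325.4 and 379.6 in MCD+HF (log2 difference 1.73, adjusted p = 6.5e-09), and Tkt rose by 0.60 (adjusted p = 3.1e-04). H6pd, which makes NADPH inside the endoplasmic reticulum, fell by 0.49 (adjusted p = 0.00144). With metformin, Prdx4 rose by 0.43 (adjusted p = 0.0372) and H6pd by 0.48 (adjusted p = 0.0231), the single call in each list, beside 3.97% of all genes.

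Of 19 conjugation and export targets, 7 rose and 5 fell with the diet (median 0.24), beside 27.4% higher and 20.8% lower over all genes. Abcc4, a basolateral efflux pump of the hepatocyte, had 48.6, 31.3, 34.4 and 50.8 in NC, 395.6, 478.2, 625.4 and 850.5 in MCD+HF, and 379.5, 285.6, 314.6 and 276.3 in MCD+HF+Met. It rose 14.2-fold with the diet (log2 difference 3.50, adjusted p = 2.8e-09) and fell by 0.83 with metformin (adjusted p = 0.0327). Cbr3, a carbonyl reductase, had 6.6, 12, 29.8 and 18.6 in NC and 201.1, 201.3, 272.8 and 230.4 in MCD+HF. It rose (adjusted p = 1.1e-08) from an NC mean of 16.8, under the level of 20, so the size of the rise is not given. Gstm3, a glutathione transferase of a family with closely related sequences, rose by 1.58 (adjusted p = 3.9e-06), and it rose further by 0.79 with metformin (adjusted p = 0.0249), where Abcc4 fell.

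Among 10 genes of heme and iron handling beside Hmox1, 3 rose and 5 fell with the diet (median -0.27), beside 27.4% and 20.8% of all genes. The genes of the heme- and hemoglobin-binding proteins Hpx and Hp fell by 0.92 and 0.95 (adjusted p = 1.6e-06 and 3.4e-05), as did Cd163, the macrophage receptor for hemoglobin with haptoglobin, by 1.61 (adjusted p = 0.00646). These calls depended on the processing. Over the alternatives and with single arrays left out, their adjusted p reached 0.633 for Hpx, 0.0571 for Hp and 0.0502 for Cd163. Of 10 hepatocyte markers, 8 fell over the same arrays too, among them Alb by 1.02 and Ttr by 0.99, and 2 were not called. Cd163 is in the macrophage list too, where the other genes that fell with the diet were the Kupffer cell markers Clec4f (-1.36) and Timd4 (-1.30). The part of these cells in the values was not tested. Blvra, which reduces the biliverdin made by heme oxygenase, rose by 0.53 with the diet (adjusted p = 0.00705) and fell by 0.55 with metformin (adjusted p = 0.0473). It was the single call with metformin in this list, beside 3.97% of all genes. The amino acid response genes, which share Slc7a11 as a textbook target with Nrf2, showed 7 of 13 that rose and 1 that fell with the diet (median 0.50), beside the same 27.4% and 20.8%. Psat1, an enzyme of serine synthesis, had 8.7, 14.2, 30.1 and 2.2 in NC and 198.9, 221.5, 227.0 and 301.8 in MCD+HF. It rose (adjusted p = 1.0e-07), but its NC mean of 13.8 lay under the level of 20, so the size of the rise is not given. The stress factor Atf3 rose by 2.56 and the hormone Fgf21 by 2.24 (adjusted p = 3.3e-08 and 1.4e-06). Atf3 had 188.3, 191.1, 169.8 and 161.3 in MCD+HF and 102.7, 94.7, 85.0 and 71.3 in MCD+HF+Met, a fall of 0.94 with metformin (adjusted p = 0.0124).

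The calls with metformin outside the 10 genes were mostly close to the threshold. Over the alternatives and with single arrays left out, the adjusted p reached 0.158 for Prdx4, 0.142 for H6pd, 0.191 for Abcc4, 0.203 for Gstm3, 0.133 for Blvra, 0.0874 for Atf3 and 0.0832 for Cbs. Cbs was called with each array left out.

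**Figure D5:**
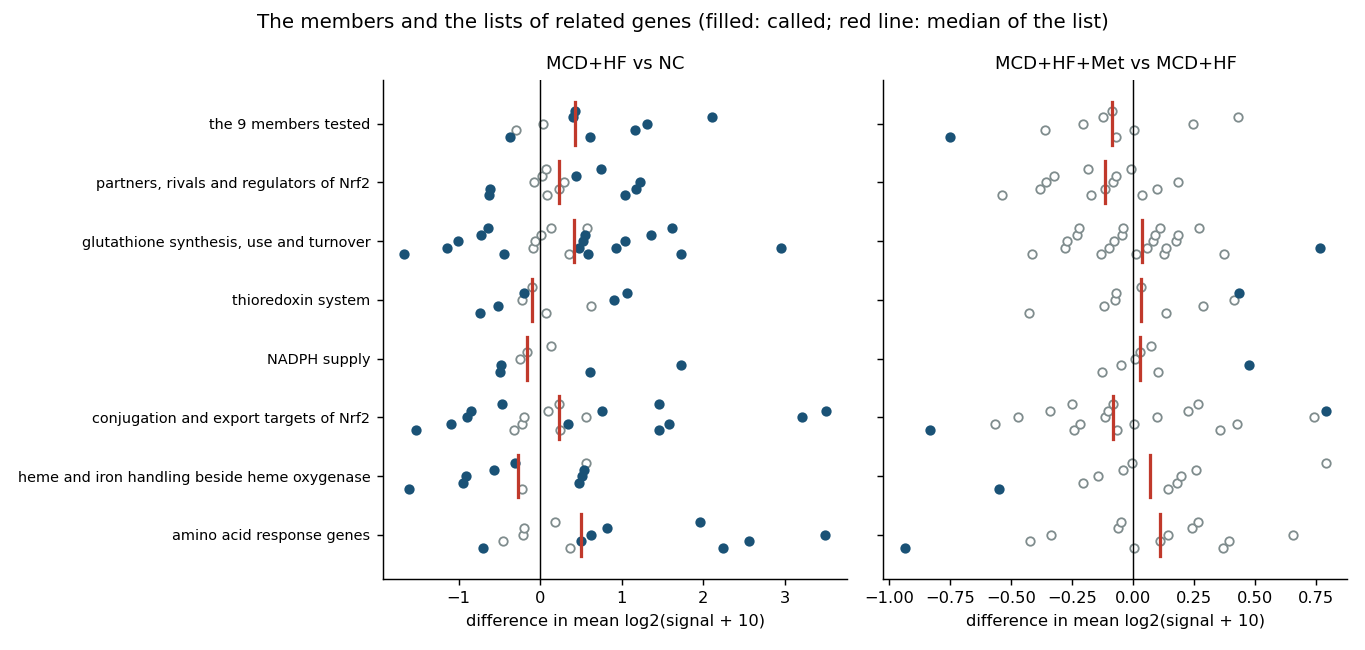
Difference in mean log2(signal + 10) of each gene of the 9 tested genes and of the 7 lists of related genes, for MCD+HF minus NC (left) and MCD+HF+Met minus MCD+HF (right, a narrower axis); filled points have an adjusted p under 0.05 and red lines are list medians. With the diet every list holds filled points on both sides of 0, and with metformin no list holds more than 2, where 3.97% of all genes were called.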

How the data were processed

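Total RNA of each liver was hybridised to an Affymetrix mouse array, and the authors deposited 1 linear signal intensity per probe set, computed with GCOS and scaled to an average of 100 per array. The table has 45101 probe sets, 64 of them controls. Here log2(signal + 10) was used, probe sets averaging under 20 over the 12 arrays were dropped, and the 22830 left were fitted together for all 3 groups by limma 3.58.1 (lmFit, eBayes with trend, 9 residual degrees of freedom) in R 4.3.3, with Benjamini-Hochberg adjustment over all of them. Adding 10 understates differences of dim probe sets, and the number of arrays limits the precision. Probe sets were named from the platform annotation (34945 with 1 symbol, 932 with several, 9160 unnamed here). For 34741 the gene was found in RefSeq (GRCm38.p6) and its symbol there was used, whether or not it differed. A probe set ending in _x_at stood for a gene only where no other did. The genes and lists were chosen with earlier results of these data known. From each list, up to 3 called genes with the largest difference with the diet, and up to 3 with metformin, are named. No list of related genes had more than 2 called with metformin, beside 3.97% of all genes. The script was tested on simulated data. Alternatives were offsets of 0 and 32, no filter or a minimum of 50, quantile normalization, a replicate block, other variance models, 2 groups only, each array left out, the methods' t-test and other probe sets. Those for the list counts were added after seeing the data. Detection calls were not used here. Prdx1, Prdx5, Prdx6, G6pdx, Gsta1, Ftl1, Ggt1 and Gdf15, which no probe set names alone, were not analysed here. Python 3.11.15 and matplotlib 3.10.9 were used for tables and figures.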

Additional observations from a re-analysis of the deposited data

How the results depend on the processing

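Counts of the 9 genes here use the brightest probe set of each gene, so other probe sets do not enter them. With the diet, 7 of the 9 genes were called. The count was 7 or 8 under the alternatives and with single arrays left out, except for 4 by the methods' t-test with a 1.5-fold rule. On other probe sets Nfe2l2, Keap1 and Gsr were not called with the diet (limma adjusted p = 0.278, 0.107 and 0.332). Txnrd1 fell on one of them (-0.65, adjusted p = 4.1e-04), while Gclm was called (-0.27, adjusted p = 0.0206). With metformin the count of 1 became 2 with offset 32, a minimum signal of 50, quantile normalization or robust variance, and 0 by the methods' t-test after adjustment, and it ranged from 0 (without MCD+HF+Met replicate 2) to 2 (without MCD+HF+Met replicate 4). Between MCD+HF+Met and NC the count of 7 became 4 by the methods' t-test after adjustment and 3 with its 1.5-fold rule (6 to 7 under the other alternatives and with single arrays left out, and with no filter Slc7a11 took the place of Txnrd1). Over all probe sets, 9998 were called with the diet (6072 by the 1.5-fold rule), 9057 between MCD+HF+Met and NC (5258) and 786 with metformin (898). The 1.5-fold rule uses an unadjusted p. With metformin, 476 were called with no filter and 8 by the methods' t-test after adjustment (4053 at an unadjusted p under 0.05). The range was 254 to 837 with single arrays left out, 254 without MCD+HF replicate 2 and 297 without MCD+HF+Met replicate 2. Of the related lists, none of the 13 partners and regulators of Nrf2 was called with metformin under any of the 24 settings. Over all genes, 3.97% were called with metformin in the fit used throughout.

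With quantile normalization the sign turned for Nfe2l2 with metformin (-0.029), for Keap1 between MCD+HF+Met and NC (-0.023) and for Gclc between MCD+HF+Met and NC (0.27). Other probe sets turned it for Nfe2l2 with the diet (-0.28), Keap1 with metformin (-0.081) and against NC (-0.41), Gclc with metformin (0.24) and against NC (0.49), Gsr against NC (-0.10), Srxn1 with metformin (-0.086), and Txnrd1 with the diet (-0.65 and -0.15) and against NC (-0.88 and -0.49). Leaving out single arrays gave -0.050 to 0.046 for Nfe2l2 with metformin, -0.038 to 0.099 for Keap1 against NC, and -0.059 to 0.11, -0.19 to 0.020 and -0.16 to 0.020 for Gclc with the diet, with metformin and against NC. The causes were not tested.

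Whether replicate numbers pair the mice was checked by the deviations from the group mean. Those of 12 same-number pairs correlated at -0.13 to 0.25, and 2 of the 12 exceeded 0.1. The same number gave the best match in 3 of the 12. With 4 mice per group this check cannot exclude a pairing. With the replicate block, 9940, 725 and 8978 probe sets and 7, 1 and 7 of the 9 genes were called with the diet, with metformin and between MCD+HF+Met and NC.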
